A study of Arabidopsis thaliana with 14 samples.

Results

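The genes described here are those of the UDP-glycosyltransferase (UGT) family of Arabidopsis thaliana, enzymes that attach a sugar to small molecules. They were taken as the probe sets that pair with exactly 1 gene whose symbol starts with UGT and a number, without the cytokinin N-glucosyltransferase genes UGT76C1 and UGT76C2 and without UGT78D2. This left 44 of 47 such genes, in 11 subfamilies, among 13350 genes that have a probe set of their own and a name in the annotation used here. The subfamilies were UGT71 with 9 genes, UGT72 with 4, UGT73 with 7, UGT74 with 3, UGT76 with 6, UGT78 with 2, UGT84 and UGT85 with 5 each, and UGT80, UGT87 and UGT88 with 1 each. Each of the 44 genes has 1 probe set.

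Auxin and cytokinin crosstalk was the subject of the series, which measured RNA of 5 mm primary root tips on Affymetrix ATH1 arrays. All 14 arrays are of 1 line, AtIPT8/pga22 (background Wassilewskija), which the labels describe as carrying a T-DNA knock-out of IPT8, and which is known as a line in which 17-beta-estradiol induces IPT8, a gene for a cytokinin-making isopentenyltransferase. After 7 days on plates under light, seedlings received liquid medium alone (control), medium with 5 µM 17-beta-estradiol, or medium with 5 µM trans-zeatin, a natural cytokinin, and were sampled after 12 or 24 h. Control 12 h and estradiol 12 h had 3 arrays each, and 2 arrays were made for each of trans-zeatin 12 h, control 24 h, estradiol 24 h and trans-zeatin 24 h. No array is of estradiol on plants without the inducible gene, so an effect of estradiol itself and an effect of IPT8 cannot be told apart. The labels do not say whether replicates were separate cultures, so p-values measure the spread between these samples, which may be technical.

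UGT enzymes take an activated sugar, usually UDP-glucose, and join it to hormones, flavonoids, lignin precursors, defence compounds or foreign chemicals. The glycoside is as a rule more soluble and less active than the free compound, and is often stored in the vacuole, from where beta-glucosidases can release the free compound again. In roots such conjugation takes part in setting the level of free hormones, among them cytokinins, auxin, abscisic acid and salicylic acid.

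The deposited values are signal intensities on a linear scale with the same trimmed mean on every array, and the arrays had median signals of 35.4 to 42.4. On the second principal component (13.6% of the variance) 2 arrays stood apart, replicate 3 of control 12 h and replicate 1 of estradiol 12 h, and a UGT call at 12 h that ended without them is given as such below. The calls of genes that are not UGT were not run without them. The ratio of 3' to 5' actin signal, a measure of RNA integrity, was 3.23 to 4.93 in control 12 h and 2.37 to 3.31 in treated 12 h arrays, and at 24 h it stood at 6.24 and 6.44 in control and at 3.71 to 4.85 in treated arrays. An older actin control pair was also lower in treated arrays at 12 h, with 25.2 to 29.5 in control and 12.9 to 20.5 in treated arrays. At 24 h this older pair went the other way, with 18.9 and 25.7 in control and 24.1 to 33.6 in treated arrays. Of the listed cell type markers few were measured: of 9 meristem markers JKD had a signal of 23.3 to 56.8 and BBM of 3.69 to 28.4, and none of root cap, endodermis or vascular tissue had a named probe set. The summed signal of PUCHI, LBD16 and LBD29, 3 of 5 lateral root markers, was 107 to 179 in control and 64.1 to 94.9 in treated 12 h arrays, and 191 and 217 in control and 42.1 to 74.6 in treated 24 h arrays. That of the root hair markers EXPA7 and EXPA18, 2 of 9 listed, was 48.2 to 157 in control and 57.1 to 106 in treated arrays. RCA, a leaf photosynthesis gene and the 1 measured of 12 leaf markers, was not absent: its signal was 247 to 324 in control 12 h, 135 to 563 in estradiol 12 h and 240 to 275 in trans-zeatin 12 h arrays, and 64.1 and 113 in control 24 h, 310 and 1025 in estradiol 24 h and 162 and 233 in trans-zeatin 24 h arrays. The part of these markers in the results was not tested.

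Of the 44 UGT genes, 29 were kept for testing because at least 2 arrays exceeded a signal of 23, the 40th percentile of all values. Another 15 stayed under that rule, with signals of 0.283 to 26.2: UGT71B6, UGT71B8, UGT72B3, UGT72E3, UGT73C1, UGT73C2, UGT76E1, UGT76E11, UGT78D1, UGT78D3, UGT84B1, UGT84B2, UGT85A4, UGT85A5 and UGT85A7. They include the auxin glucosyltransferase gene UGT84B1, the flavonol rhamnosyltransferase gene UGT78D1 and the abscisic acid glucosyltransferase gene UGT71B6, and no UGT78 or UGT84B gene was kept. None of these 15 was called when the fit was run with no such filter (lowest adjusted p = 0.0672, UGT85A7). UGT76E12 and UGT84A1 were kept through treated arrays alone, since no control array of either exceeded 23. At the other end, 16 UGT genes exceeded 23 on all 14 arrays.

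Of the 29 UGT genes tested, 6 were called in at least 1 of the 4 comparisons with the control of the same time. UGT71B1, UGT73B1, UGT73C7 and UGT76E12 rose and UGT71C3 fell after 12 h of estradiol. UGT73B1 and UGT76E12 also rose after 12 h of trans-zeatin, and UGT74B1, the glucosyltransferase gene of glucosinolate synthesis, rose after 24 h of estradiol. Here called means an adjusted p under 0.05 by Benjamini-Hochberg, taken over the whole set of 15605 probe sets tested with limma on log2 of the signal plus 6.3. Because these are whole root tips, fewer cells of a type and less RNA per cell cannot be told apart.

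After 12 h of estradiol 5 of 29 UGT genes (17.2%) were called, 4 higher and 1 lower, while 4.88% of all probe sets tested were called. The corresponding shares of all probe sets were 2.36% higher and 2.52% lower. UGT76E12, 1 of the 5, was tested only because estradiol arrays exceeded 23, so that a difference was built into its being counted. After 12 h of trans-zeatin 2 of 29 (6.90%) were called, both higher, beside 7.54% of all probe sets (3.21% higher). After 24 h of estradiol 1 of 29 (3.45%) was called, and it was higher, beside 3.81% (2.28% higher), and after 24 h of trans-zeatin 0 of 29 were called, beside 3.47% of all probe sets. At an unadjusted p under 0.05 the counts were 10, 12, 8 and 6 of 29 in the same order of comparisons, beside 20.8%, 23.3%, 18.3% and 17.3% of all probe sets. The count for estradiol 12 h rested on few arrays: without 1 array at a time it ranged from 1 to 6. With the actin ratio as a covariate it was 1, while the other 3 counts then were 0. That ratio was mostly lower in treated than in control arrays of the same time. The covariate fit therefore cannot tell RNA integrity and treatment apart. Calls over all probe sets also fell with the covariate in all 4 comparisons and varied with the array left out. No test set the UGT counts against them, so no shift particular to UGT genes is shown. The 4 comparisons share control arrays at each time, so their results are not separate evidence.

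**Figure D1:**
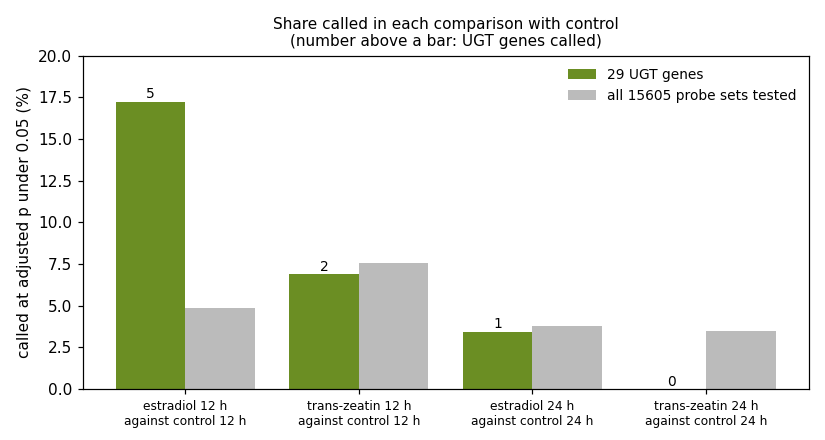
Bars give the percentage called at an adjusted p under 0.05 in each comparison with control, for the 29 UGT genes tested (green) and for all 15605 probe sets tested (grey), and the number above a green bar is the count of UGT genes. The UGT share is above that of all probe sets at estradiol 12 h (17.2% against 4.88%) and near or below it in the other 3 comparisons.

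The median log2 change of the 29 genes was 0.13 at estradiol 12 h, 0.21 at trans-zeatin 12 h, -0.05 at estradiol 24 h and -0.11 at trans-zeatin 24 h. Over all probe sets tested the medians were 0.00, -0.03, -0.09 and -0.06. With all 44 genes and no filter the UGT medians were 0.12, 0.03, -0.09 and -0.10, beside 0.02, -0.01, -0.11 and -0.08 over all 22746 unfiltered probe sets. The fitted change was positive in all 4 comparisons for 10 genes, among them UGT71B1, UGT73B1, UGT74B1 and UGT76E12, and negative in all 4 for 6 genes, among them UGT71C3. The share of all probe sets with equal signs was not computed, and comparisons at the same time share controls, so equal signs are not separate evidence. UGT76E12 and UGT84A1, both among the 10, passed the filter through treated arrays alone. Called or not, the single changes of the 23 genes that were never called ran from -0.94 (UGT72E1) to 1.64 (UGT84A1, a dim gene whose value depends on the 6.3 added).

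**Figure D2:**
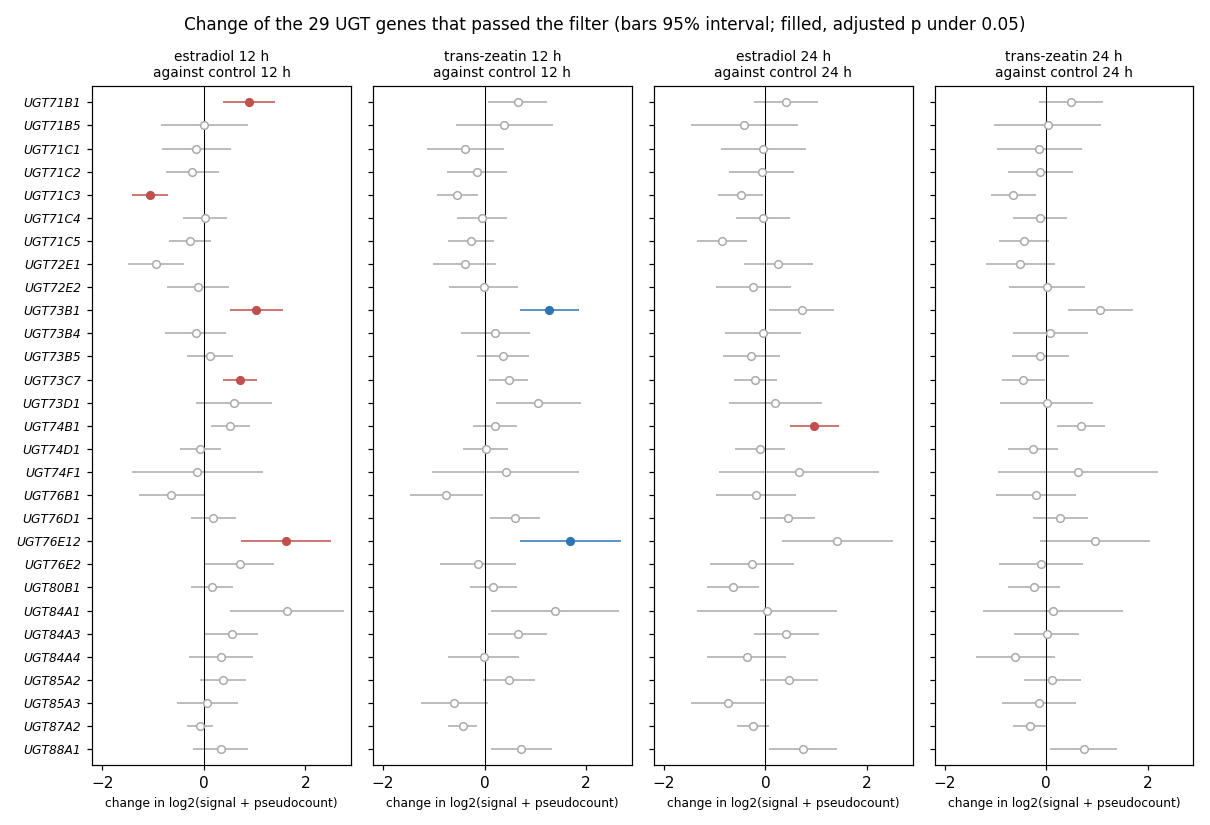
Points are log2 changes against the control of the same time for the 29 UGT genes tested, by subfamily, with 95% intervals as lines, and filled points are called. The filled points are UGT71B1, UGT71C3, UGT73B1, UGT73C7 and UGT76E12 at estradiol 12 h, UGT73B1 and UGT76E12 at trans-zeatin 12 h and UGT74B1 at estradiol 24 h.

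UGT71 held the only gene called lower among the 29 UGT genes tested. UGT71C3 (AT1G07260) encodes an enzyme known to glucosylate methyl salicylate. At 12 h its signal was 82.8, 73.0 and 87.8 in control, 27.7, 38.7 and 41.8 with estradiol and 53.9 and 53.4 with trans-zeatin. At 24 h the signal was 73.6 and 73.7 in control, 50.1 and 51.3 with estradiol and 39.8 and 49.8 with trans-zeatin. Every treated array was lower than every control array at both times, and at 12 h the estradiol arrays were also lower than the trans-zeatin arrays. UGT71C3 fell by 1.06 ± 0.17 on the log2 scale (SE) after 12 h of estradiol, from a mean signal of 81.2 ± 7.497 (SD, n = 3) to 36.1 ± 7.40 (n = 3; limma adjusted p = 0.00255). The changes with trans-zeatin at 12 h (-0.54 ± 0.19, adjusted p = 0.0968), estradiol at 24 h (-0.49, adjusted p = 0.224) and trans-zeatin at 24 h (-0.65 ± 0.21, adjusted p = 0.105) did not pass. The fall was called without each of the 14 arrays in turn (adjusted p from 0.00354 to 0.0142) and, with the actin ratio as a covariate, it was -1.35 ± 0.21 (adjusted p = 0.009015).

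UGT71C3 lies beside UGT71C4 and UGT71C5 on the chromosome (AT1G07240 to AT1G07260), and the neighbours were not called. UGT71C5, whose enzyme makes the glucose ester of abscisic acid, had a signal of 193 and 170 in control 24 h, 93.3 and 101 in estradiol 24 h and 120 and 144 in trans-zeatin 24 h arrays. All 4 treated arrays were lower than both controls, but the change with estradiol missed the threshold (-0.86 ± 0.23, adjusted p = 0.0577). At 12 h UGT71C5 was 176, 163 and 213 in control and 208, 125 and 130 with estradiol, so that the groups overlapped. UGT71C4 ranged from 78.4 to 140 over all arrays, and its 4 changes lay between -0.12 and 0.02.

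UGT71B1 (AT3G21750) had signals of 20.9, 28.7 and 15.3 in control 12 h, 37.4, 46.5 and 49.7 in estradiol 12 h and 43.2 and 31.0 in trans-zeatin 12 h arrays. In control 24 h it was 17.7 and 18.7, in estradiol 24 h 24.8 and 27.3 and in trans-zeatin 24 h 36.1 and 21.9. Treated arrays were above the controls of their time in all 4 comparisons, with the widest gap at estradiol 12 h. There UGT71B1 rose 1.84-fold (0.88 ± 0.24), from 21.6 ± 6.71 (SD, n = 3) to 44.5 ± 6.41 (n = 3), with a limma adjusted p of 0.04996 directly at the threshold. The call ended without any 1 of 11 of the 14 arrays (adjusted p from 0.0505 to 0.155) and under 6 of 10 other settings (adjusted p from 0.056 to 0.157), among them the one without both arrays that stood apart. The other comparisons of UGT71B1 did not pass (0.65, 0.40 and 0.50, lowest adjusted p = 0.16), nor did those of UGT71B5, UGT71C1 and UGT71C2, whose signals ranged from 8.62 to 68.2.

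In UGT72, whose E members glucosylate the lignin precursors known as monolignols and their aldehydes, no gene was called. UGT72E1 had a signal of 49.7, 51.9 and 88.1 in control 12 h, 35.7, 32.4 and 20.5 in estradiol 12 h and 38.3 and 53.3 in trans-zeatin 12 h arrays. At 24 h it was 33.8 and 26.5 in control, 36.4 and 37.6 with estradiol and 14.3 and 25.0 with trans-zeatin. Estradiol arrays were all below control at 12 h and all above it at 24 h. The 12 h difference was -0.94 ± 0.26 (adjusted p = 0.0531), the 24 h difference was 0.26 ± 0.32 (adjusted p = 0.711), and the test of their difference, 1.198 ± 0.41, did not pass either (adjusted p = 0.42). The 2 control groups themselves stood at 63.2 ± 21.6 (n = 3) and 30.1 ± 5.15 (n = 2). UGT72E2, of the same group of enzymes, had overlapping groups at 12 h and changes of -0.24 to 0.01, over signals of 111 to 263.

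UGT73 held 2 called genes. UGT73B1 (AT4G34138) belongs to a branch whose enzymes are known to act on flavonoids and foreign compounds. Its signal was 56.8, 54.5 and 57.5 in control 12 h, 77.4, 135 and 172 in estradiol 12 h and 138 and 153 in trans-zeatin 12 h arrays. At 24 h it was 49.0 and 45.8 in control, 97.2 and 68.6 with estradiol and 85.4 and 130 with trans-zeatin. All 9 treated arrays exceeded all 5 control arrays, and the controls varied far less than the treated arrays. UGT73B1 rose 2.05-fold after 12 h of estradiol (1.03 ± 0.24, limma adjusted p = 0.0253), from 56.3 ± 1.55 (SD, n = 3) to 128 ± 47.5 (n = 3). It rose 2.42-fold after 12 h of trans-zeatin (1.27 ± 0.27, limma adjusted p = 0.0138), to 145 ± 10.7 (n = 2).

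At 24 h the UGT73B1 differences did not pass, with 0.71 ± 0.30 for estradiol (adjusted p = 0.218) and 1.06 ± 0.30 for trans-zeatin (adjusted p = 0.0697). The latter was the lowest adjusted p of any UGT gene at trans-zeatin 24 h, and it passed under 6 alternatives, with adjusted p from 0.0136 to 0.0428. Over the settings other than left-out arrays this change ran from 0.47 to 1.16, and its adjusted p reached 0.754. The estradiol 12 h call ended without control 12 h replicate 1, 2 or 3 or estradiol 12 h replicate 2 or 3 (adjusted p from 0.0599 to 0.0942). The trans-zeatin 12 h call ended without trans-zeatin 12 h replicate 2 (adjusted p = 0.122). With the actin ratio as a covariate the 12 h changes were 0.63 ± 0.30 and 0.82 ± 0.34 and neither passed (adjusted p = 0.368 and 0.288).

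UGT73C7 (AT3G53160), known to glucosylate phenylpropanoids such as p-coumaric and ferulic acid, was called after 12 h of estradiol, with treated arrays on the other side of control at 24 h. Its signal was 74.9, 101 and 70.0 in control 12 h, 134, 140 and 137 in estradiol 12 h and 114 and 115 in trans-zeatin 12 h arrays. At 24 h it was 119 and 118 in control, 108 and 96.7 with estradiol and 74.3 and 97.5 with trans-zeatin. Treated arrays were all higher than control at 12 h and all lower at 24 h. The rise after 12 h of estradiol was 1.64-fold (0.71 ± 0.16, limma adjusted p = 0.0203), from 82.1 ± 16.9 (SD, n = 3) to 137 ± 2.94 (n = 3). The changes with trans-zeatin at 12 h (0.47, adjusted p = 0.128), estradiol at 24 h (-0.20, adjusted p = 0.629) and trans-zeatin at 24 h (-0.45 ± 0.20, adjusted p = 0.251) did not pass. The effect at 24 h minus that at 12 h was -0.91 ± 0.25 for estradiol (adjusted p = 0.303) and -0.92 ± 0.27 for trans-zeatin (adjusted p = 0.395), and the control at 24 h against 12 h was 0.52 ± 0.18 (adjusted p = 0.212). These 3 comparisons did not pass, so a difference between the times is not shown by the test. The 12 h call ended without control 12 h replicate 1 or 3 or estradiol 12 h replicate 2 or 3 (adjusted p from 0.0522 to 0.0833), and with both arrays that stood apart left out it was 0.63 ± 0.19 (adjusted p = 0.107).

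UGT73D1, the chromosomal neighbour of UGT73C7, was not called. Its signal was 25.1, 39.4 and 24.6 in control 12 h and 57.0 and 79.4 in trans-zeatin 12 h arrays, with no overlap and a change of 1.06 ± 0.39 (adjusted p = 0.117). The neighbouring genes UGT73B4 and UGT73B5 had signals of 119 to 323 and 124 to 286. UGT73B4, whose enzyme is known to act on explosives related to trinitrotoluene, had changes of -0.16 to 0.21, and UGT73B5, tied to pathogen response, had changes of -0.28 to 0.36. None of these passed.

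**Figure D3:**
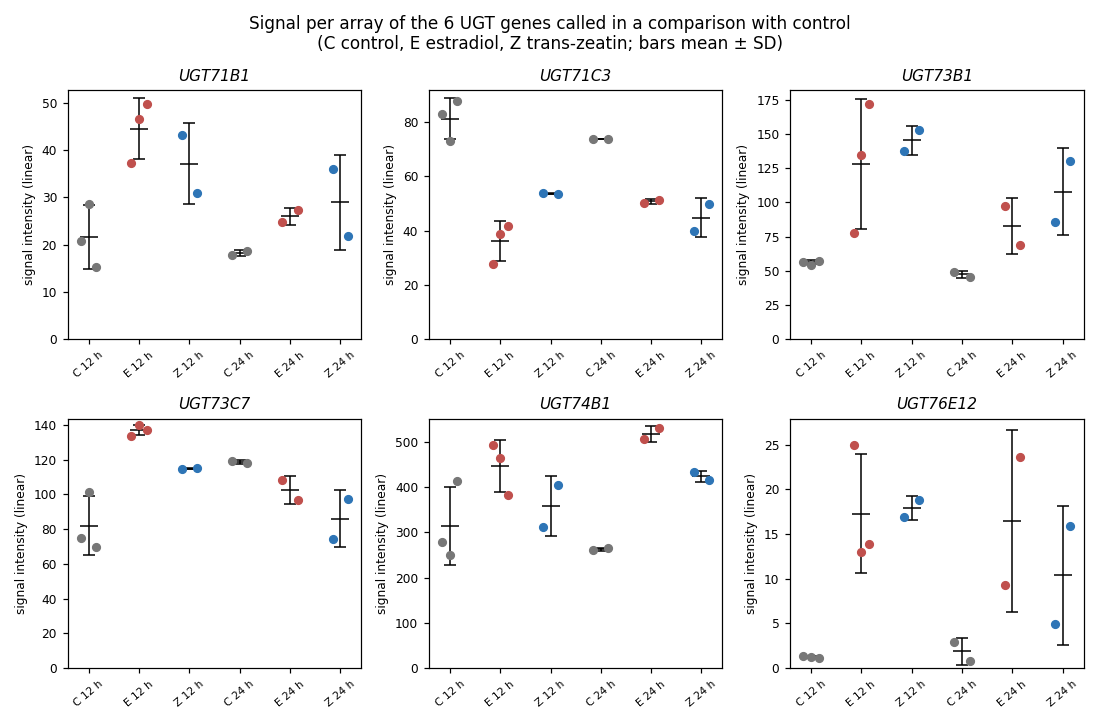
Each panel gives the signal of 1 of the 6 called UGT genes on every array (points, linear scale), by group (C control, E estradiol, Z trans-zeatin), with the group mean and SD as bars. UGT73B1 is at 45.8 to 57.5 on the 5 control arrays and at 68.6 to 172 on the 9 treated arrays, and UGT71C3 at 73.0 to 87.8 on control and 27.7 to 53.9 on treated arrays.

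In UGT74 the called gene was UGT74B1 (AT1G24100), whose enzyme adds glucose to the sulfur atom of thiohydroximates during glucosinolate synthesis. Its signal was 260 and 265 in control 24 h, 506 and 531 in estradiol 24 h and 433 and 416 in trans-zeatin 24 h arrays. At 12 h it was 280, 250 and 413 in control, 493, 464 and 382 with estradiol and 312 and 406 with trans-zeatin. The 24 h groups lay apart from each other in the order control, trans-zeatin, estradiol, while at 12 h the treated groups overlapped with control through control 12 h replicate 3, the highest of its group. UGT74B1 rose 1.95-fold after 24 h of estradiol (0.97 ± 0.22, limma adjusted p = 0.0262), from 263 ± 3.35 (SD, n = 2) to 519 ± 17.6 (n = 2).

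The UGT74B1 change after 24 h of trans-zeatin was 0.68 ± 0.22 (adjusted p = 0.118) and after 12 h of estradiol 0.52 (adjusted p = 0.114). Without control 12 h replicate 3 both passed, with adjusted p = 0.0442 and 0.0219. The trans-zeatin 24 h change also passed with only the arrays compared and without both arrays that stood apart (adjusted p from 0.0095 to 0.0324). Over all settings other than single left-out arrays it ran from 0.43 to 0.78, and its adjusted p reached 0.72. The estradiol 12 h change ran from 0.38 to 0.73 with 1 array left out at a time. The estradiol 24 h call ended without any 1 of the 4 arrays of its groups (adjusted p from 0.0852 to 0.167), and with the actin ratio as a covariate it was 0.79 ± 0.28 (adjusted p = 0.234). RCA, the leaf marker, rose in the same comparison (log2 change 2.64 ± 0.57, adjusted p = 0.0193). The difference of estradiol from trans-zeatin at 24 h was 0.29 with a 95% interval of -0.19 to 0.76 (adjusted p = 0.932).

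The other UGT74 genes act on hormones and were not called. UGT74D1, whose enzyme glucosylates auxin and its oxidised form, had signals of 110 to 200 and changes of -0.26 to 0.02. UGT74F1, which makes a glucoside of salicylic acid, was dim at 1.74 to 23.5 and exceeded 23 on control 12 h replicate 3 and trans-zeatin 24 h replicate 1 only. Its standard errors of 0.60 to 0.74 were the widest of the 29 genes in each of the 4 comparisons.

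In UGT76 the called gene was UGT76E12 (AT3G46660), which was dim on every array. Its signal was 1.33, 1.191 and 1.097 in control 12 h, 25.0, 13.0 and 13.9 in estradiol 12 h and 17.0 and 18.8 in trans-zeatin 12 h arrays. At 24 h it was 2.93 and 0.790 in control, 9.26 and 23.6 with estradiol and 4.90 and 15.9 with trans-zeatin. All 9 treated arrays exceeded all 5 controls, but only estradiol 12 h replicate 1 and estradiol 24 h replicate 2 passed 23. UGT76E12 rose 3.07-fold after 12 h of estradiol (1.62 ± 0.41, limma adjusted p = 0.0385) and 3.22-fold after 12 h of trans-zeatin (1.69 ± 0.46, limma adjusted p = 0.0418). These folds include the added 6.3 and depend on it: with 1 added instead the log2 changes were 2.995 and 3.098. At 24 h the changes were 1.42 ± 0.51 (adjusted p = 0.148) and 0.96 ± 0.51 (adjusted p = 0.361).

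Because UGT76E12 passed the filter through treated arrays alone, its difference from control was built into its being tested. The estradiol 12 h call ended without any 1 of the 6 arrays of its groups (adjusted p from 0.0599 to 0.136). The trans-zeatin 12 h call ended without any 1 of 7 arrays, including each array of its 2 groups (adjusted p from 0.0515 to 0.233). Without both arrays that stood apart the changes were 1.39 ± 0.53 (adjusted p = 0.214) and 1.68 ± 0.53 (adjusted p = 0.0845).

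UGT76B1, whose enzyme glucosylates isoleucic acid and salicylic acid, had a signal of 186, 285 and 257 in control 12 h, 114, 180 and 168 in estradiol 12 h and 112 and 171 in trans-zeatin 12 h arrays. The treated arrays were all below control at 12 h, with changes of -0.64 ± 0.30 (adjusted p = 0.245) and -0.75 ± 0.34 (adjusted p = 0.193). At 24 h they overlapped with control, and the estradiol arrays alone spanned 91.7 to 240. UGT76D1, known to act on dihydroxybenzoic acids, was 39.4 to 45.4 in control 12 h and 52.3 and 88.6 in trans-zeatin 12 h arrays (0.59 ± 0.23, adjusted p = 0.137). UGT76E2, related to enzymes that glucosylate hydroxyjasmonate, was split within the estradiol 12 h group, with 41.0 and 39.7 against 14.6 in replicate 3, beside 12.4 to 21.5 in control (0.70 ± 0.31, adjusted p = 0.221).

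UGT80B1, a sterol glucosyltransferase gene with a part in seed coat formation, was not called. Its signal was 64.4 and 65.7 in control 24 h, 36.9 and 42.7 in estradiol 24 h and 45.6 and 63.3 in trans-zeatin 24 h arrays. Both treated groups were below control at 24 h (-0.63 ± 0.24, adjusted p = 0.166, and -0.25 ± 0.24, adjusted p = 0.662). At 12 h control was 53.3, 31.1 and 43.2, overlapped by both treated groups, with changes of 0.16 and 0.17.

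UGT84A enzymes make glucose esters of hydroxycinnamic acids, and UGT84A1, UGT84A3 and UGT84A4 lie side by side (AT4G15480 to AT4G15500). UGT84A1 was near the bottom of the scale in control, with 0.631, 0.740 and 4.16 at 12 h, against 13.1, 18.2 and 26.4 with estradiol and 5.03 and 31.9 with trans-zeatin. At 24 h all 6 arrays, treated or not, were between 0.616 and 2.42. The 12 h arrays therefore differed by treatment without overlap and the 24 h arrays overlapped. The 12 h changes of 1.64 ± 0.53 (adjusted p = 0.09) and 1.38 ± 0.59 (adjusted p = 0.173) did not pass, nor did the difference between the times (-1.61 ± 0.83 for estradiol, adjusted p = 0.632). Without the filter or without the intensity trend the estradiol 12 h change passed (adjusted p = 0.0297 and 0.0358). Its size depends on what is added to the signal and on the other settings, under which the log2 change ran from 0.76 to 2.99, and like UGT76E12 it was tested only because treated arrays exceeded 23.

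UGT84A3 had a signal of 24.0, 24.1 and 26.9 in control 12 h, 39.7, 40.1 and 39.0 in estradiol 12 h and 37.4 and 49.0 in trans-zeatin 12 h arrays. The 12 h replicates lay close together and apart from control, but control 24 h spread from 17.3 to 44.5, and the fit pools the spread over all groups. The changes of 0.55 ± 0.24 (adjusted p = 0.213) and 0.65 ± 0.27 (adjusted p = 0.165) did not pass. UGT84A4 had signals of 19.1 to 53.4 and changes of -0.61 to 0.33, with groups that overlapped in all 4 comparisons.

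**Figure D4:**
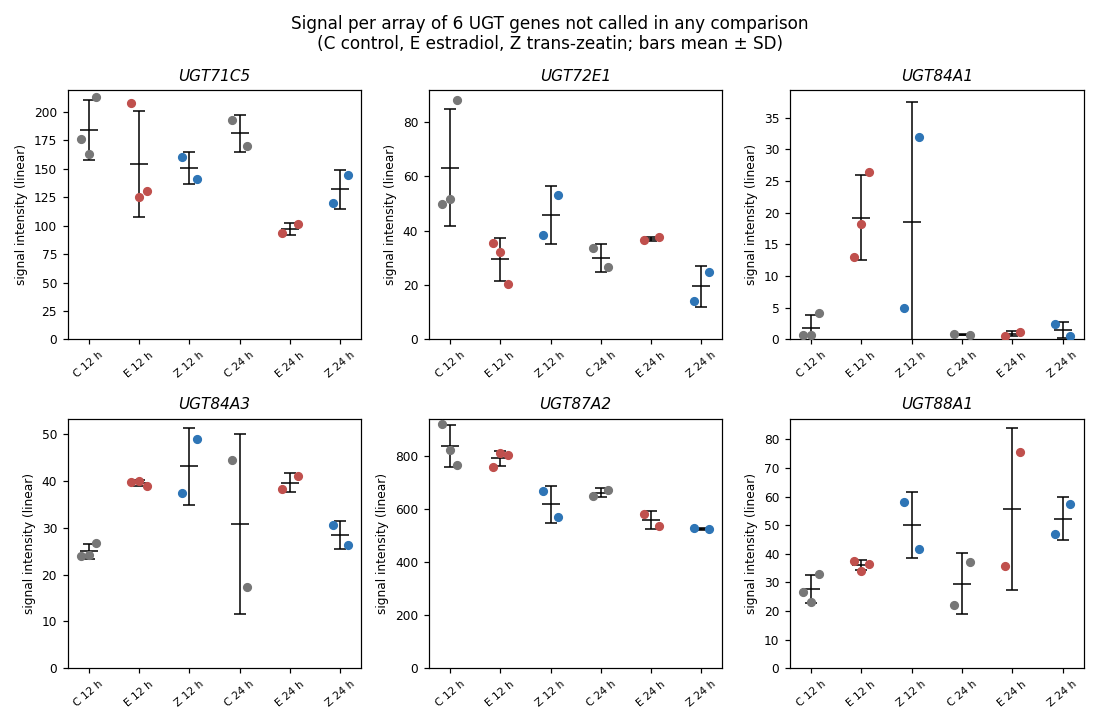
Each panel gives the signal on every array (points, linear scale) of 1 of 6 UGT genes that were not called, by group (C control, E estradiol, Z trans-zeatin), with the mean and SD as bars, cut at 0 for UGT84A1. UGT84A1 is at 5.03 to 31.9 on the treated 12 h arrays and at or below 4.16 on all others. The UGT72E1 arrays lie below control at estradiol 12 h and above it at estradiol 24 h, and neither difference was called (limma adjusted p = 0.0531 and 0.711).

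Of UGT85, UGT85A2 and UGT85A3 were kept, and they lie in a run with UGT85A5 and UGT85A7, which were not. UGT85A2 was 148, 174.5 and 182 in control 12 h, 184, 218 and 262 with estradiol and 173 and 324 with trans-zeatin. Estradiol arrays were above control at both times, and the trans-zeatin replicates differed from each other by more than the estradiol group from control. The changes of UGT85A2 were 0.37, 0.49, 0.46 and 0.12 in the 4 comparisons (lowest adjusted p = 0.242). UGT85A3 was 32.3 and 25.9 in control 24 h and 15.01 and 14.78 in estradiol 24 h arrays (-0.73 ± 0.34, adjusted p = 0.269).

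UGT87A2, known for a part in the timing of flowering, had a signal of 922, 823 and 765 in control 12 h and 668 and 569 in trans-zeatin 12 h arrays. In control 24 h it was 650 and 673, in estradiol 24 h 582 and 536 and in trans-zeatin 24 h 528 and 524. Treated arrays were lower than control in these 3 comparisons, and the 759 to 810 of estradiol 12 h overlapped with control. The steps were small, with -0.43 ± 0.14 at trans-zeatin 12 h (adjusted p = 0.069), -0.24 ± 0.15 at estradiol 24 h and -0.33 ± 0.15 at trans-zeatin 24 h, and none passed.

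UGT88A1 was 26.7, 23.3 and 32.8 in control 12 h, 37.6, 34.1 and 36.4 in estradiol 12 h and 58.2 and 41.8 in trans-zeatin 12 h arrays. At 24 h it was 21.9 and 37.1 in control, 35.7 and 75.8 with estradiol and 46.9 and 57.5 with trans-zeatin. Treated arrays were higher than control except at estradiol 24 h, where the groups overlapped. The changes were 0.33, 0.73, 0.75 and 0.74 (lowest adjusted p = 0.139).

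Estradiol and trans-zeatin were compared directly at each time, and 0 of 29 UGT genes were called at 12 h, where 0.00641% of all probe sets were, and 0 at 24 h, where 0.0449% were. At an unadjusted p under 0.05 from limma there were 4 of 29 genes at 12 h, beside 8.47% of all probe sets, and 1 of 29 at 24 h, beside 5.72%. UGT71C3 was lower with estradiol than with trans-zeatin at 12 h by 0.52 ± 0.19 in the fitted log2 change (estimate -0.52, 95% interval -0.92 to -0.11, adjusted p = 0.51). For UGT73B1 the 12 h difference was -0.24 with an interval of -0.82 to 0.34, and for UGT76E12 -0.07 with an interval of -1.07 to 0.93. The misses of the threshold therefore do not show that the treatments acted alike on these genes. At 24 h the gene at an unadjusted p under 0.05 was UGT72E1, higher with estradiol (0.77 ± 0.32, adjusted p = 0.795).

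The controls at 24 h against 12 h gave 0 of 29 UGT calls, beside 0.468% of all probe sets, with UGT72E1 first (-0.90 ± 0.29, adjusted p = 0.185). At an unadjusted p under 0.05 there were 4 of 29 genes, beside 15% of all probe sets. The change of the treatment effect between the times was called for 0 of 29 genes with estradiol, beside 0.0769% of all probe sets, and for 0 of 29 with trans-zeatin, beside 0% of all probe sets. At an unadjusted p under 0.05 these limma tests gave 4 and 1 of 29 genes, beside 8.48% and 9.53% of all probe sets. The first in both was UGT73C7, described above. For estradiol UGT72E1 and UGT80B1 (-0.80 ± 0.31, adjusted p = 0.489) followed.

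The 44 genes cluster along the chromosomes: 27 of them lie in 11 runs of 2 to 4 members in which consecutive members are at most 3 gene positions apart in the TAIR10.1 gene order. The called genes UGT71C3, UGT73C7, UGT71B1 and UGT76E12 are in such runs, and UGT73B1 and UGT74B1 are not. No run had a second called member, but UGT71B6 and UGT71B8 beside UGT71B1 and UGT76E11 beside UGT76E12 were not kept, so those 2 runs had no other member in the test. Within the run of UGT71C3 the estradiol 12 h changes were -1.06 for UGT71C3, -0.27 for UGT71C5 and 0.02 for UGT71C4, and within that of UGT73C7 they were 0.71 for UGT73C7 and 0.60 ± 0.35 for UGT73D1. Within the UGT84A run they were 1.64 for UGT84A1, 0.55 for UGT84A3 and 0.33 for UGT84A4. None of the 44 probe sets is of the kind that the array design marks as shared between similar transcripts.

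Genes that supply or work beside the UGT enzymes were read from lists, of which the annotation names few members. Of 28 listed genes of nucleotide sugar supply 1 was kept: USP, which makes UDP-sugars, rose after 12 h of estradiol from 128 ± 30.4 (SD, n = 3) to 204 ± 25.9 (n = 3; 0.67 ± 0.18, limma adjusted p = 0.0494). Its changes in the other 3 comparisons were 0.67, 0.64 and 0.72 and did not pass. Of 22 flavonoid genes, which make acceptors of UGT enzymes, 3 were kept: CHIL, a helper of chalcone synthesis, rose at estradiol 12 h (1.48 ± 0.36, limma adjusted p = 0.0316), and CHI and DFR were not called. CHIL was at 0.98 at trans-zeatin 12 h, 1.47 at estradiol 24 h and 0.19 at trans-zeatin 24 h, which did not pass. Of 21 phenylpropanoid genes HCT and ALDH2C4 were kept and none was called. Of 24 glucosinolate genes, the pathway of UGT74B1, the 1 kept was BCAT4. It fell by 1.63 ± 0.42 at trans-zeatin 24 h (limma adjusted p = 0.0495) and was at -0.05 at estradiol 24 h, where UGT74B1 rose. At 12 h BCAT4 was at -1.22 with estradiol (limma adjusted p = 0.0591) and -1.32 with trans-zeatin (limma adjusted p = 0.0529), which did not pass.

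Beta-glucosidases, which can undo the reaction, had 12 kept of 48 listed. PYK10, the main root enzyme of endoplasmic reticulum bodies, rose after trans-zeatin at 12 h (0.45 ± 0.12, limma adjusted p = 0.0336) and 24 h (0.55 ± 0.13, limma adjusted p = 0.0286). With estradiol it was at 0.12 ± 0.10 at 12 h and 0.42 ± 0.13 at 24 h (limma adjusted p = 0.553 and 0.0832), which did not pass. BGLU28 rose after 12 h of trans-zeatin (1.25 ± 0.31, limma adjusted p = 0.03). It was at 0.68 at estradiol 12 h, 0.22 at estradiol 24 h and 0.61 at trans-zeatin 24 h, which did not pass. The other 10 beta-glucosidase genes were not called. Of 40 genes of foreign compound response 10 were kept, and the glutathione transferase gene GSTU26 rose at estradiol 12 h (1.53 ± 0.38, limma adjusted p = 0.0329) and trans-zeatin 24 h (1.81 ± 0.46, limma adjusted p = 0.0478). Of 25 genes of hormone conjugation and partners 3 were kept, and WES1, which joins auxin to amino acids, fell after 12 h of estradiol by 0.91 ± 0.19 (limma adjusted p = 0.0158). WES1 was at -0.51 at trans-zeatin 12 h, -0.82 at estradiol 24 h and -0.83 at trans-zeatin 24 h, which did not pass (limma adjusted p = 0.169, 0.0724 and 0.0752). No gene of the list of 15 for cytokinin glucosylation, removal and activation had a named probe set. Of 10 type-A response regulators, which cytokinin induces, only 2 were measured and both were kept. RR16 was called higher in all 4 comparisons and ARR15 in 3 of 4. Each list result covers only the named genes and says nothing of members that were not measured.

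**Figure D5:**
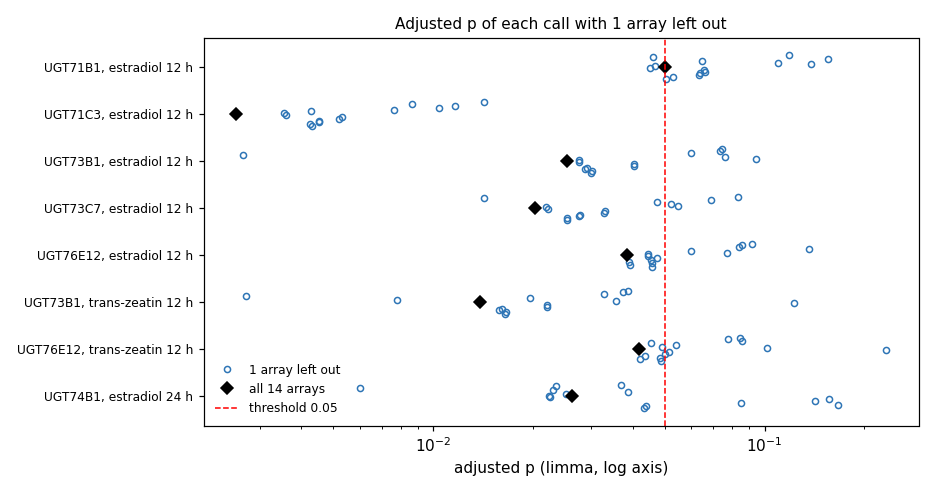
For each of the 8 UGT calls, points give the adjusted p when 1 array at a time was left out, on a log axis, with the value from all 14 arrays and the threshold of 0.05 marked. UGT71C3 stays between 0.00354 and 0.0142, while for each of the other 7 calls at least 1 array takes the value above 0.05.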

How the data were processed

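The deposited table holds signal intensity on a linear scale, which the authors made with MAS5 and GCOS, per the submitters' processing notes; no version or parameter of these is given here. The mean after trimming 2% at each end was 100 on every array, so no further normalization was applied. The platform annotation pairs 13513 of 22810 probe sets with 1 gene, 503 with several and 8794 with none, and 64 control sets were not tested. Signals of different probe sets are not comparable, so no level of a gene is set against that of another.

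Tests used the log2 scale after adding 6.3, the 20th percentile, to each signal, so folds understate changes of dim genes. The filter asked for 2 arrays above 23 and left 15605 probe sets. With limma 3.58.1 in R 4.3.3, 1 mean per group was fitted over all 14 arrays, and variances were moderated along signal level (degrees of freedom: 8 residual, 5.96 prior). Tests were two-sided, Benjamini-Hochberg adjusted over all probe sets kept, in 9 comparisons. All adjusted p-values are from limma. Precision is limited by the 2 or 3 arrays in a group. How often groups do not overlap over all probe sets was not computed, so separation of arrays is a description only.

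Genes given by name are every called UGT gene, in each subfamily the member with the lowest p and the member with the highest mean signal (a rule for choosing names, which says nothing of expression), the members not kept, and up to 3 genes of each list. The other kept members were added for completeness. The UGT genes, the lists and the alternatives were chosen with earlier results of these data known. The alternatives were other normalizations, pseudocounts, filters, covariates and left-out arrays. Same-numbered replicates were checked for pairing: of 31 pairs of deviations from the group means 3 correlated above 0.1 (range -0.27 to 0.19), so the numbers were not used as pairs. In a group of 2 arrays the deviations mirror each other, so the 31 pairs are not all separate and the check is weak. The code was tested on simulated data. No coordinates or sequences are given.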

Additional observations from a re-analysis of the deposited data

How the results depend on the processing

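No called log2 change of a UGT gene reversed its sign under any alternative, and 0 UGT genes were called in the direct comparison of the treatments, in the control comparison and in both comparisons of effects between times under every alternative run. In the order estradiol 12 h, trans-zeatin 12 h, estradiol 24 h and trans-zeatin 24 h, the counts of 5, 2, 1 and 0 UGT genes called became 5, 2, 1 and 1 with quantile normalization and with each array centred on its median, and 6, 1, 1 and 0 with the pseudocount at the 40th percentile. They became 3, 1, 2 and 0 with the filter at the 60th percentile, which tests fewer genes, and 1, 1, 2 and 2 when only the arrays of the groups compared were fitted. Without both arrays that stood apart they were 2, 1, 2 and 2. With the replicate number as a block they were 3, 1, 1 and 0, and with the actin ratio as a covariate 1, 0, 0 and 0. A pseudocount of 1 gave 4, 2, 1 and 0, no filter 5, 2, 1 and 0, and no intensity trend 6, 2, 1 and 0. Leaving out 1 array at a time gave 1 to 6, 0 to 3, 0 to 2 and 0 to 1. With only the groups compared, calls over all probe sets also fell at 12 h and rose at 24 h. The same held without both arrays that stood apart. They also fell with the replicate block and with the actin ratio, at both times. At 12 h they rose with the filter at the 60th percentile, while the UGT counts fell. With no intensity trend they fell at estradiol 12 h, while the UGT count rose. No test set the UGT counts against all probe sets, so no shift particular to UGT genes is shown. The cause of these shifts was not tested. The planned use of another probe set of the same gene was not run, since no member has more than 1. The dim genes UGT76E12, UGT84A1 and UGT74F1 are limited by signal close to the bottom of the scale, and for groups of 2 arrays a left-out array leaves 1, which is then assumed to vary like the other groups.

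UGT71C5 at estradiol 24 h, not called from all arrays, passed without control 12 h replicate 3, without estradiol 12 h replicate 1, with the filter at the 60th percentile, with only the groups compared and without both arrays that stood apart (adjusted p from 0.00933 to 0.0499). UGT72E1 at estradiol 12 h passed without trans-zeatin 12 h replicate 1 (0.0498) and with the pseudocount at the 40th percentile (0.045). Under other settings the adjusted p of UGT71C5 at estradiol 24 h reached 0.26, and that of UGT72E1 at estradiol 12 h reached 0.192. For UGT76D1 and UGT85A2 at trans-zeatin 12 h, leaving out trans-zeatin 12 h replicate 1 leaves 1 array in that group. With 1 array left out at a time, their log2 changes ran from 0.25 to 0.94 and from 0.046 to 0.92. UGT76E2 at estradiol 12 h passed without estradiol 12 h replicate 3 (0.0472). Its log2 change ran from 0.50 to 1.09 with 1 array left out at a time.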

Other observations

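Other genes of the family are on the array outside the selection used above, and they were looked up after the UGT values had been seen. SGT, a sterol glucosyltransferase gene listed under that symbol, fell after 12 h of estradiol by 0.58 ± 0.16 on the log2 scale (limma adjusted p = 0.047), with a signal of 121 ± 14.2 in control and 79.2 ± 15.5 with estradiol (SD, n = 3 each). It is the sterol enzyme relative of UGT80B1, which in the same comparison was at 0.16 ± 0.19 and not called. IAGLU, an auxin glucosyltransferase gene, and GT72B1 were kept and not called in any of the 4 comparisons with control. A probe set shared by UGT73B2 and UGT73B3 had a mean signal of 1070 ± 327 in control 12 h, and none of its changes passed. They were -0.47 ± 0.28 at estradiol 12 h (adjusted p = 0.379), 0.31 ± 0.32 at trans-zeatin 12 h (adjusted p = 0.612), -0.68 ± 0.35 at estradiol 24 h (adjusted p = 0.324) and -0.49 ± 0.35 at trans-zeatin 24 h (adjusted p = 0.52).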
